A study of Mus musculus with 2 samples.

Results

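Accessible regions that lay at an end of a gene and were listed in the Brd9 knockout library, but not in the control library, numbered 802 of the 28403 autosomal regions formed from both peak lists. They were chosen by measured peaks: peaks of both lists that shared at least 1 bp were merged, regions holding knockout peaks alone were kept (3713 of them), and of these the ones within 1 kb of either outer end of any RefSeq gene were taken. The knockout library came from CD45.2(+) Vav1-iCre Brd9fl/fl fetal livers and the control library from CD45.2(+) Brd9fl/fl fetal livers, both of C57BL/6 strain at E14.5, in mid-gestation. Both libraries thus carried the floxed Brd9 alleles, and only the knockout library carried the Cre recombinase, which the Vav1 regulatory DNA drives in blood cells. Each library was made by ATAC-seq from 150000 lineage-negative, c-Kit-positive cells, a sorted fraction rich in blood stem and progenitor cells. There was 1 library per genotype, so no difference below has a replicate check and no p-value is given. The sources used here do not say how many embryos were pooled.

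ATAC-seq marks DNA that a transposase can reach, and most gene starts in active use are open in this way. BRD9 is a bromodomain protein of the non-canonical BAF complex, one of the chromatin remodelling complexes of the SWI/SNF family, which moves nucleosomes and is known from other cells to sit at gene starts and CTCF sites. A gene end in the sense used here is either its start, where the promoter lies, or its 3' end, where transcription stops, and the 2 are told apart below. In a sorted pool, fewer cells with an open site and less opening in each cell cannot be told apart.

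The knockout list held 22348 peaks and the control list 25330. The height of a peak is given as summit reads, the number of extended reads over its highest point, recovered from the deposited values. The lowest background was 0.971 reads in the knockout list and 1.52 in the control list, a depth ratio of 0.640. Brd9 itself had a shared end region of 151 knockout and 217 control reads, which does not check the genotype, because the sources used here do not place the floxed part. End regions of the progenitor genes Kit, Runx1 and Myb were in both lists, while the blood and progenitor genes Ptprc, Cd34 and Gata2 had none in either list, and neither did Alb, Afp and Ttr of hepatocytes or Cd3e, Ly6g and Itgam of mature blood cells. Ddx3y and Uty on chromosome Y had end regions in the knockout list alone, with 33 and 18 reads, so sex-linked differences between the libraries coincide with genotype and cannot be told apart from it.

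Promoter windows covered whole by a knockout-only region show what kind of DNA was involved. RefSeq windows of build GRCm38.p6 run from 250 bases before a start to 50 after it, and 79 of the 802 regions covered at least 1 window in full. The 6 highest-ranked are shown, 5' to 3' on the strand of the gene, because they range from CpG-rich promoters with Sp and ETS motifs (Dmwd, Ppil1) to CpG-poor starts of noncoding genes (Gm41331, Mirt1). Capitals mark matches, on either strand, to any of the 12 motifs named further on, and neighbouring matches can run together.
Dmwd, chr7:19075950-19076249, plus strand: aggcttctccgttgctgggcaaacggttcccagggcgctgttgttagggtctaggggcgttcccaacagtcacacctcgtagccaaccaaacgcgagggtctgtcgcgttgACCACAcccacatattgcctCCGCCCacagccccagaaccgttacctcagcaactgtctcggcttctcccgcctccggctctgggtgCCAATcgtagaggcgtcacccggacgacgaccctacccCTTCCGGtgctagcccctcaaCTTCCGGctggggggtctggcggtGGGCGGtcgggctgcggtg
Prr5, chr15:84662956-84663255, plus strand: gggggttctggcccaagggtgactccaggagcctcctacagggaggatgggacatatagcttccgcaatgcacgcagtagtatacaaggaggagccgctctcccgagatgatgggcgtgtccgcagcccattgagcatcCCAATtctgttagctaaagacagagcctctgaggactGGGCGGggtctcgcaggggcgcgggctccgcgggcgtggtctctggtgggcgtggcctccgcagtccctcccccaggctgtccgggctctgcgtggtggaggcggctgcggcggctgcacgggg
Gm41331, chr15:60141661-60141960, plus strand: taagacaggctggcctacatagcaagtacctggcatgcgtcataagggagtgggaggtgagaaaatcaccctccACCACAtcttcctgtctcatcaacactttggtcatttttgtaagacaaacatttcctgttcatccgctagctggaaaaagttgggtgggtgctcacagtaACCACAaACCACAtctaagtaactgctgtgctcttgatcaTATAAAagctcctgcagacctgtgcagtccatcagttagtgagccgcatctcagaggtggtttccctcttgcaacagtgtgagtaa
Mirt1, chr19:53464747-53465046, minus strand: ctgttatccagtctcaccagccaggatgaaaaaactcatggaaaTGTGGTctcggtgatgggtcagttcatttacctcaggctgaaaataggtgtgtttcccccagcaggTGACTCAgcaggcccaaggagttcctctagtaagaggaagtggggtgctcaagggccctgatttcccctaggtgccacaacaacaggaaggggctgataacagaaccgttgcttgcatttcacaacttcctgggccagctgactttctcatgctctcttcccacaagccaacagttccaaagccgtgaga
Gm46116, chr9:61056683-61056982, plus strand: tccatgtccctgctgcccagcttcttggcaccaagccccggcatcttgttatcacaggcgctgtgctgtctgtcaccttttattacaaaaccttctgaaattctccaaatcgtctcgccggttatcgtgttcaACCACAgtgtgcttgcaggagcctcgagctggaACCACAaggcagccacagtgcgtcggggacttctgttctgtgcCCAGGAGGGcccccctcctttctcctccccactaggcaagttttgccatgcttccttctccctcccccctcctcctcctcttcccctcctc
Ppil1, chr17:29263922-29264221, minus strand: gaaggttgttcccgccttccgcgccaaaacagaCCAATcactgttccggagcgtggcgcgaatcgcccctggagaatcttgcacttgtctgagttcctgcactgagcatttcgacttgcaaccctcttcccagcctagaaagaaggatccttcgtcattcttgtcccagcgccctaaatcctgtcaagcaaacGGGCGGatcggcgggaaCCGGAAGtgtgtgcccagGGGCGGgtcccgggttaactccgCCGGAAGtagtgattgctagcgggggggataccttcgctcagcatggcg
The windows of Dmwd and Ppil1 held 25 and 23 CpG dinucleotides, that of Prr5 21, that of Gm46116 9, and those of Gm41331 and Mirt1 3 each.

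The strongest region by −log10 q, the peak caller's own measure, covered the start of Dmwd, a WD-repeat gene (chromosome 7, 19075810 to 19076260, mm10). It had 88 summit reads in the knockout library (95% Poisson interval 70.6 to 108), and its summit lay 40 bp upstream of the start. On the depth scale of the control library that height corresponds to 137 reads. The nearest control peak was 6086 bp away, with 18 reads. Its interval lay above those of the other members in the first 12 by −log10 q.

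Ola1, the gene of an Obg-family ATPase, came next, with a region of 43 reads (31.1 to 57.9) at its 3' end. The other end of Ola1 held a region in both lists, with 138 reads in the knockout library and 270 in the control library. Actl6b, which encodes an actin-like BAF subunit known from neurons, had 28 reads (18.6 to 40.5) with the summit 58 bp past its start. Another end region of Actl6b was shared, with 48 reads in the knockout library and 90 in the control library. Upstream of the start of Tbkbp1, whose product binds the innate immune kinase TBK1, there were 40 reads (28.6 to 54.5). Acvr1b, an activin receptor gene, had 33 reads (22.7 to 46.3), 197 bp upstream of its start. Neither Tbkbp1 nor Acvr1b had a shared end region.

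Among the rest of the first 12, Mpeg1, the gene of a pore-forming protein of macrophages, had 24 reads (15.4 to 35.7) 913 bp from its 3' end. Zmiz1, a transcriptional coactivator gene, had 53 reads (39.7 to 69.3) on a local background of 10.5, with the summit 32 bp upstream of a start. A control peak of 118 reads stood 565 bp away. Zmiz1 also had a shared end region, with 75 reads in the knockout library and 118 in the control library. Prr5, which encodes a component of mTOR complex 2, had 24 reads (15.4 to 35.7) with the summit 1 bp upstream of its start. The region at the start of Ssh3, a slingshot phosphatase gene, had 23 reads (14.6 to 34.5), and an end of Ankrd13d lay within 1 kb of it. Noncoding genes made up the others, with 31 reads at Gm41564, 20 at Gm41272 and 31 at Gm46107. Gm46107 also had a shared end region, with 15 reads in the knockout library and 32 in the control library. The control peaks nearest to these 12 regions lay between 565 and 254760 bp away, so some stood beside open control chromatin and others in stretches with none.

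**Figure D1:**
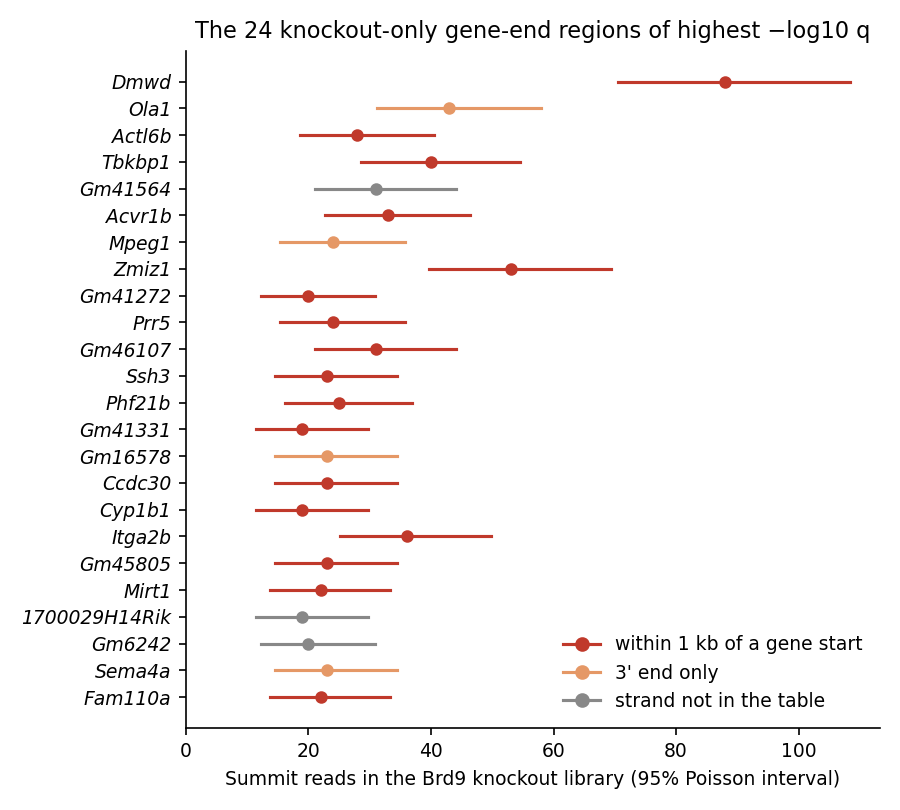
Summit reads in the Brd9 knockout library (horizontal axis, linear) for the 24 knockout-only gene-end regions of highest −log10 q, named by the nearest gene, with 95% Poisson intervals; colours give the kind of gene end. Dmwd stands apart at 88 reads, and the others lie between 19 and 53.

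Most members were far weaker than these. Their summit reads had a median of 11, with quartiles of 8 and 14 and a range from 6 to 88. Of the 802, 487 had at least 10 reads, 79 at least 20 and 12 at least 40. The deposited −log10 q ranged from 1.39 to 70.6 with a median of 4.67 and was 10 or more at 88 regions. At 289 members the local background equalled the lowest of the library, and each member consisted of a single knockout peak. Knockout-only regions away from gene ends, 2911 in number, had a median of 9 reads with quartiles of 7 and 12.

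The knockout peaks of members had a median width of 518 bp, and the shortest peak in either list had 376 bp. Among regions with 6 to 8 knockout reads the median width was 493 bp for members and 521 bp for the knockout peaks of shared gene-end regions. It was 519 and 561 bp with 9 to 11 reads, 568.5 and 624 bp with 12 to 14, 524 and 673.5 bp with 15 to 19, and 498 and 827 bp with 20 to 88, members given before shared regions. Widths thus went up with height in both kinds as far as 14 reads, and above that in shared regions alone. The top step is broad, and heights within it were not matched. The rule also bears on width, since a wider knockout peak has more bases that can overlap a control peak and so be counted as shared. The part of the rule in this contrast was not tested. Control-only gene-end regions, not split by height, had control peaks with a median width of 561 bp and quartiles of 460 and 720 bp.

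**Figure D2:**
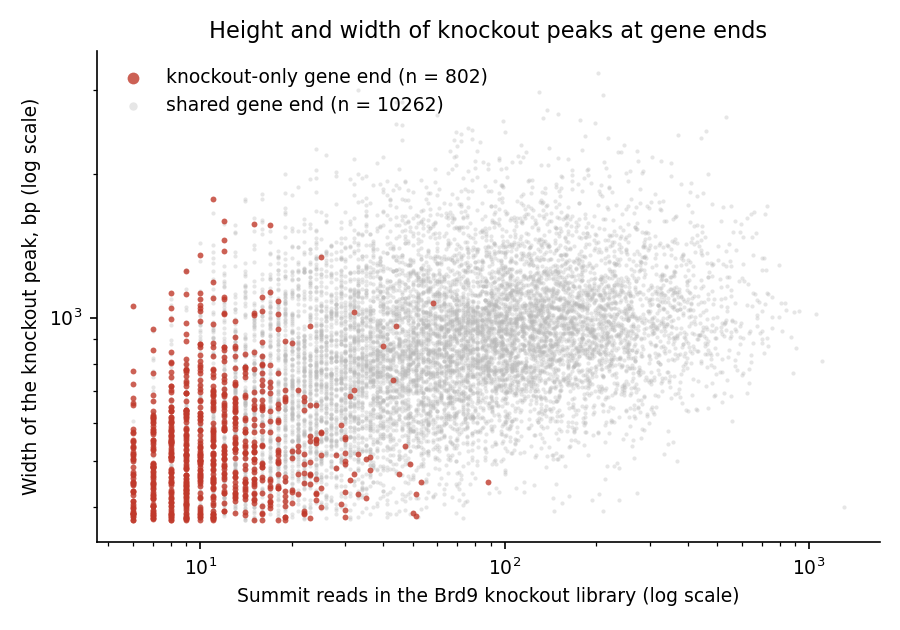
Summit reads (horizontal axis, log scale) against peak width in bp (vertical axis, log scale) in the knockout list, for the 802 knockout-only and 10262 shared gene-end regions below 3000 reads. Knockout-only regions fill the low and narrow corner, and those above 20 reads mostly stay near 500 bp where shared regions widen.

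The presence of a control peak and the distance to a gene end decided membership. Just inside the 1 kb limit lay regions at Itih1 (992 bp, 14 reads), Fcgr4 (998 bp, 15 reads) and Med29 (999 bp, 36 reads), and just outside it regions at Samd12 (1001 bp, 10 reads), Cpne9 (1004 bp, 9 reads) and Gm14009 (1006 bp, 18 reads). The members closest to a control peak lay at Tmed6, 6 bp from a control peak of 8 reads, at Sema6b, 21 bp from one of 10 reads, and at Dll4, the gene of a Notch ligand, 26 bp from one of 32 reads. In all, 8.35% of members (67 of 802, 95% Clopper-Pearson interval 6.53 to 10.5) had a control peak within 1 kb, 44.8% within 10 kb and 81.3% within 50 kb. Control-only gene-end regions had a knockout peak within 1 kb in 8.42% (7.01 to 10.01), within 10 kb in 43.8% and within 50 kb in 81.4%. The share of members with a control peak within 1 kb rests on how overlap is defined: it was 3.03% with peaks within 500 bp merged and 24.1% when 0.5 of a knockout peak had to be covered. It was 0.737% with lists of equal length, which kept the 10910 best peaks of each library and left the overlap rule unchanged.

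Knockout-only regions made up 6.44% of the 12444 gene-end regions, and control-only regions 11.1% (1378), while 10264 were shared. The control library had the higher lowest background, 1.52 against 0.971 reads, and the longer peak list. The part of depth in this difference, and in the like one by genes below, was not tested. For shared gene-end regions with 8 to 14 knockout reads, the middle range of the members, the control library had a median of 18 reads with quartiles of 14 and 24. Members differ from those in that no control peak was called at all. The control level at the members, and whether it lay below that one, was not measured, since the files give no counts outside peaks.

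Among members whose kind of end is known, starts outnumbered 3' ends. Strands came from the RefSeq promoter table, which has no entry on chromosome 18, so the 33 members there were left out of this count. Of the other 769 members, 401 (52.1%, 48.6 to 55.7) lay within 1 kb of an annotated start of any gene, 172 (22.4%, 19.5 to 25.5) near 3' ends only, and 196 (25.5%, 22.4 to 28.7) at genes with no strand in the table. Among control-only gene-end regions 54.6% (51.9 to 57.3) were at starts and 19.8% (17.7 to 22.0) at 3' ends only. Among all shared gene-end regions these shares were 77.6% and 5.63%.

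Part of that contrast went with height. Shared gene-end regions of 8 to 14 knockout reads were at starts in 61.0% (57.4 to 64.5) and at 3' ends only in 13.9% (11.6 to 16.6). Neither interval overlapped that of the members, which were of all heights from 6 to 88 reads. By height, members with 6 to 8 reads were at starts in 46.6% (39.6 to 53.7), against 64.1% (54.7 to 72.8) of shared regions, and those with 9 to 11 reads in 53.1% (46.6 to 59.6), against 58.1% (52.2 to 63.8). With 12 to 14 reads the shares were 53.8% (44.9 to 62.5) for members and 62.8% (57.8 to 67.6) for shared regions. With 15 to 19 reads they were 54.0% (44.4 to 63.4) and 66.2% (62.3 to 69.9). With 20 to 88 reads they were 58.2% (46.6 to 69.2) for members and 75.6% (74.4 to 76.8) for shared regions. The intervals of members and shared regions overlapped in the steps from 9 to 19 reads and lay apart at 6 to 8 and at 20 to 88. These intervals cover counting error only, and shared regions, merged from both lists, were also wider; the part of width in the difference was not tested. Members at starts and at 3' ends were of like strength, with medians of 11 and 10.5 reads.

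**Figure D3:**
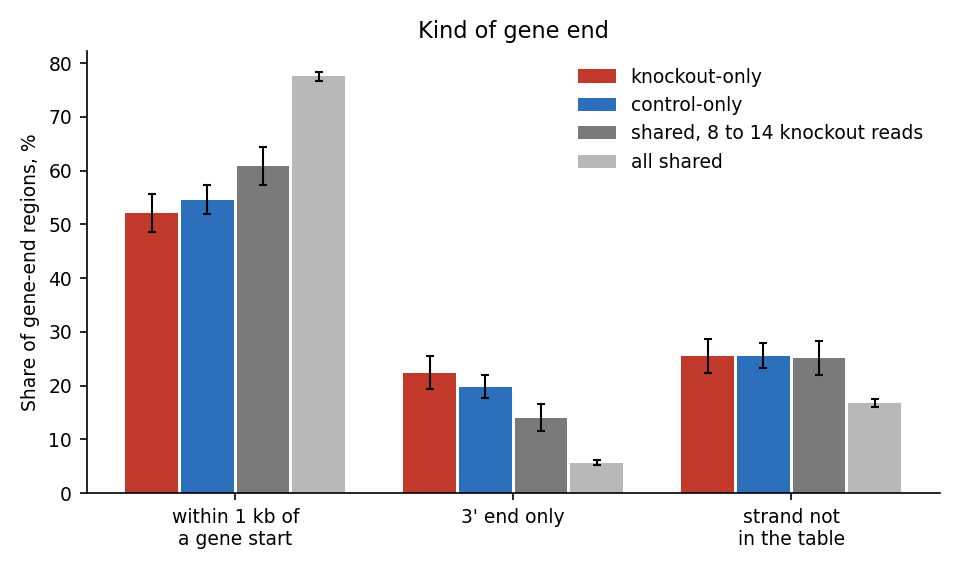
Share of gene-end regions (percent, bars from 0, with 95% Clopper-Pearson intervals) at gene starts, at 3' ends only, or at genes without a strand in the promoter table, chromosome 18 left out. Knockout-only and control-only regions stand near each other in each class, at 52.1% and 54.6% for starts, below the 77.6% of all shared regions.

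Where a member lay at a start, its summit was often set off from it. The median distance from the summit to the nearest start was 256 bp for the 401 members, 226 bp for control-only, 221 bp for shared regions of 8 to 14 knockout reads and 91 bp for all shared regions. Summits within 250 bp of a start were found for 49.1% of members, 54.2% of control-only, 54.7% of shared regions of like reads and 81.6% of all shared regions. Downstream summits were in the majority for members, at 57.4%, as for control-only regions at 63.7%.

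**Figure D4:**
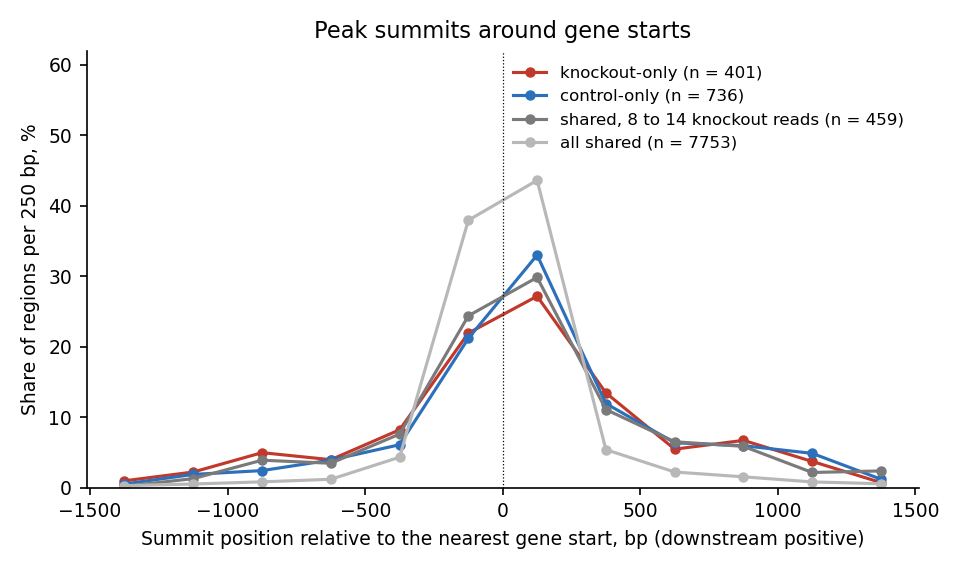
Position of the peak summit relative to the nearest gene start (bp, downstream positive) as the share of regions in each 250 bp step, for regions within 1 kb of a start. The profile of the 401 knockout-only regions is lower and broader than that of all shared regions, and near those of control-only and of weak shared regions.

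The 802 regions touched 908 of 47042 autosomal genes (1.93%), and control-only end regions touched 1592 (3.38%). No shared region lay at either end of 78.2% (75.4 to 80.8; 710 of 908) of the genes with a member, 80.1% (78.0 to 82.0) of those with a control-only region and 72.5% of all autosomal genes. Among protein-coding genes these shares were 71.7% (67.8 to 75.3; 407 of 568) for genes with a member, 74.0% (71.2 to 76.7) for genes with a control-only region and 51.2% for all. Counted by region, 22.9% of members (20.1 to 26.0) and 21.6% of control-only regions (19.5 to 23.9) lay at a gene with a shared end region. For members this share was 35.2% with gene ends drawn at 2.5 kb and 9.76% with lists of equal length. At 1 kb it was 15.2% (11.8 to 19.1) for members at starts and 50% (42.3 to 57.7) for members at 3' ends, close to the 54.3% (48.1 to 60.4) of control-only regions at 3' ends. No shared region can lie where a member lies, and most shared gene-end regions were at starts. Part of the contrast between starts and 3' ends, and of those with all genes, thus follows from the rule. In these counts the shared region could lie at either end of any gene within 1 kb of the member. At Ola1 it lay at the other end of the gene.

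Those shared ends did not stand higher in the knockout library. At the 198 genes with a member and a shared end region, the median log2 ratio of knockout over control summit reads, scaled by depth, was −0.03 (quartiles −0.23 and 0.19), and 46.0% were above 0. At the 317 genes with a control-only and a shared end region it was −0.03 as well, and at all 12932 genes with a shared end region it was 0.02 with 52.4% above 0. Where a gene had several shared end regions, the one with the most control reads was taken, in each of these gene sets. That choice can lower the ratio. The ratios come from the same pair of libraries as the choice of members and are given as a description.

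The promoters under members were of mixed CpG content. A window was assigned to a region that covered at least 150 of its 300 bases, which gave 219 windows of 205 genes under 198 members. Their GC content had a median of 61.0%, against 58.0% under control-only regions, 59.3% under shared regions of 8 to 14 knockout reads and 62.3% under all shared regions. The ratio of observed to expected CpG had a median of 0.587 under members, 0.593 under control-only regions, 0.622 under shared regions of like reads, 0.808 under all shared regions and 0.232 in windows with no region. A ratio of 0.6 or more was found in 48.9% (42.1 to 55.7) of the windows under members, 49.2% (44.6 to 53.8) of those under control-only regions and 52.6% (47.2 to 57.9) of those under shared regions of like reads. Members thus stood between CpG-rich open promoters and the CpG-poor windows that were not listed.

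**Figure D5:**
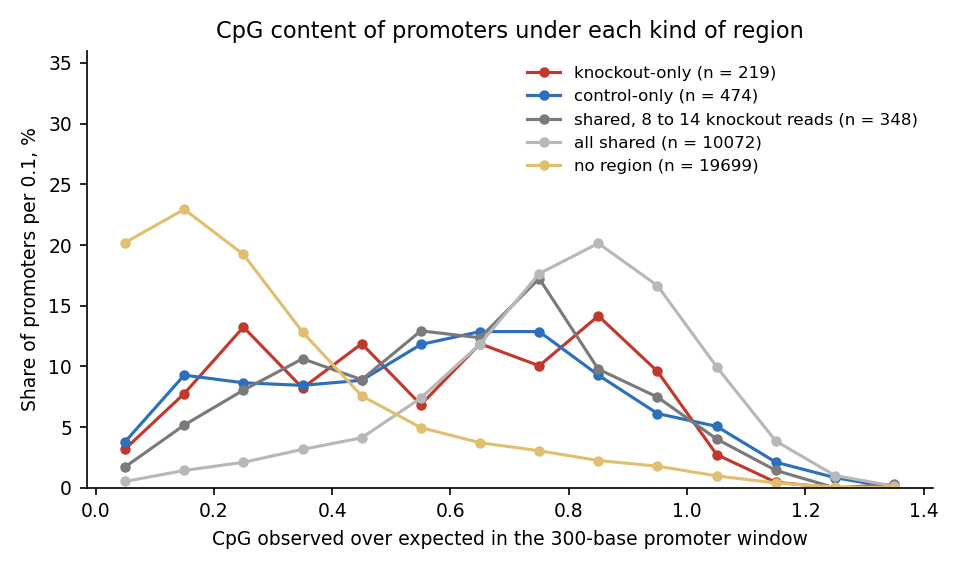
Ratio of observed to expected CpG in 300-base promoter windows (horizontal axis, last step open above) as the share of windows per 0.1, by the region that covers the window. The 219 windows under knockout-only regions spread over low and high ratios, while all shared windows gather near 0.8 and windows with no region near 0.2.

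The 12 motifs were searched as literal letters on both strands of each window, and a match is not a bound site. The Sp and KLF motif GGGCGG was in 59.8% (53 to 66.4) of windows under members, 51.3% (46.7 to 55.9) under control-only regions, 55.7% under shared regions of like reads and 35.98% of all windows. The ETS motif CCGGAAG was in 6.39% (3.54 to 10.5) under members, 9.28% under control-only regions, 9.20% under shared regions of like reads, 21.2% under all shared regions and 9.004% of all windows. The AP-1 motif TGACTCA was in 6.85% (3.88 to 11.05) under members and 5.255% of all windows, and the RUNX motif TGTGGT in 19.6% (14.6 to 25.5) under members and 16.7% of all. The GATA motif AGATAA was in 7.31% (4.23 to 11.6) under members and 11.15% of all windows, and the TATA box TATAAA in 6.39% (3.54 to 10.5) under members and 13.6% of all. The CTCF core, CCA and AGGG with any pair of bases between them, was in 7.31% under members and 6.06% of all windows. The NRF1 motif GCATGCGC was in 0.457% under members and 2.70% of all windows, the E-box CACGTG in 6.39% under members and 7.14% of all, and NF-Y (CCAAT) in 31.96% under members and 37.3% of all. YY1 (AAGATGGCG) and the palindrome CTCGCGAG had no match under members, for which the exact intervals reach up to 1.67% each. For each of the 12 motifs, the interval of the members overlapped that of shared regions of like reads.

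Genes of blood cells and of other listed groups, such as hepatocyte, endothelial and neuronal genes, were among the members in small numbers. Of 531 genes in 16 lists drawn up with earlier results of these data known, 23 (4.33%, 2.77 to 6.43) had a knockout-only end region, 38 a control-only one and 307 a shared one. Of all 20665 protein-coding genes, 568 (2.75%) had a knockout-only, 993 a control-only and 10089 a shared end region. Control-only and shared regions were thus also more frequent among the listed genes. No list held more than 4 such genes, so the lists are described gene by gene.

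Red cell genes had 4 of 40 with a knockout-only end region, 7 with a control-only one and 29 with a shared one. Alad, an early enzyme of heme synthesis, had a knockout-only region at its start with 51 reads (38.0 to 67.1) and a control-only region of 18 reads at an end as well. The local background of the knockout-only region was 13.7 reads, and the nearest control peak, of 293 reads, lay 2275 bp away. Aqp1, the water channel of the red cell membrane, had 18 reads (10.7 to 28.4) with the summit 66 bp past its start and no other end region. Tfrc, the transferrin receptor gene, had 14 reads at its 3' end, 42 bp from a control peak, and shared end regions of which one had 208 reads in the knockout library and 318 in the control library. Tspan33, a tetraspanin gene, had 6 reads at its 3' end and was the lowest-ranked of all members.

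Knockout-only end regions were found at 2 of 25 platelet genes, 2 of 38 granulocyte and monocyte genes and 1 of 13 mast cell, basophil and eosinophil genes, control-only ones at 1, 4 and 0, and shared ones at 12, 12 and 1. Itga2b, the platelet integrin gene, had 36 reads (25.2 to 49.8) upstream of its start, and Tubb1, the platelet beta-tubulin gene, 12. S100a8, a calcium-binding protein gene of granulocytes, had 7 reads (2.81 to 14.4). Il5ra, the interleukin-5 receptor gene of eosinophil precursors, had 13 reads (6.92 to 22.2) with the summit 85 bp upstream of its start. None of these 4 genes had a shared end region. The nearest control peaks lay 2258 bp (Itga2b, a peak of 82 reads), 2824 bp (Tubb1), 11457 bp (Il5ra) and 55581 bp (S100a8) away. The interval of Itga2b lay above those of Tubb1, Il5ra and S100a8, and the intervals of these 3 overlapped each other.

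Knockout-only end regions were found at 2 of 38 stem and progenitor regulators (5.26%, 0.644 to 17.75), 1 of 39 lymphoid genes and 1 of 44 chromatin regulators, and control-only ones at 4, 4 and 1. Hoxa9, a homeobox gene of stem cell self-renewal, had 19 reads (11.4 to 29.7), 616 bp beyond its 3' end. Hlf, a bZIP factor gene of blood stem cells, had 15 reads (8.40 to 24.7) with the summit 102 bp past its start, and the nearest control peak was 26647 bp away. Eomes, a T-box factor gene of T and NK cells, had 9 reads 633 bp from its end, nearer to a start of the noncoding gene Gm33408. Besides Actl6b among 29 BAF subunit genes, of which 27 had a shared end region, the chromatin list had Tet3, a 5-methylcytosine dioxygenase gene, with 11 reads near its 3' end. Neither the p53 and cell-cycle list of 37 genes nor the apoptosis list of 19 had a knockout-only end region, for which the exact intervals reach up to 9.49% and 17.65%.

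Signalling genes of innate immunity had 3 of 39 with a knockout-only end region (7.69%, 1.62 to 20.9), beside 2.75% of all protein-coding genes. Control-only end regions were found at 3 of the 39 and shared ones at 24. Besides Tbkbp1, the genes with a knockout-only region were Ddx58, which encodes the RNA sensor RIG-I, with 8 reads, and Ikbke, a kinase gene of the same pathway, with 7. Prkcd, a protein kinase C gene, had 30 reads (20.2 to 42.8) 999 bp upstream of a start, 367 bp from a control peak, beside a shared end region of 56 reads in the knockout library and 123 in the control library. Ppargc1a, a coactivator gene of mitochondrial biogenesis, had 16 reads upstream of its start. Prkcd was 1 of 51 genes in the blood signalling list, where 4 had a control-only and 44 a shared end region. Ppargc1a was 1 of 32 in the lipid metabolism list, where 1 had a control-only and 25 a shared one.

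Genes of other liver cells also appeared. Apoe, an apolipoprotein gene of hepatocytes and macrophages, had 2 knockout-only regions, with 22 reads near its start and 19 near its 3' end, and no shared one; the first also lay within 1 kb of Tomm40, whose own end was shared. Trf, the transferrin gene, had 12 reads beside a shared region of 21 reads in the knockout library and 26 in the control library. Kdr, a VEGF receptor gene of endothelium, had 17 reads near its 3' end and a control-only region of 15 reads at an end, and Stab1, a scavenger receptor gene of sinusoidal endothelium, had 12 reads 6 bp past its start. Of 18 hepatocyte genes 2 had a knockout-only, 0 a control-only and 4 a shared end region, and 13 had none. Alb, Afp and Ttr, as given above, had no end region in either list. Of 24 endothelial, stromal and macrophage genes 2 had a knockout-only, 3 a control-only and 5 a shared end region, and 15 had none. Whether other cells in the sort played a part was not tested.

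Some genes carried members at several places, 13 genes with 2 each. Hpn, the gene of hepsin, a membrane protease of hepatocytes, had 21 reads near its 3' end and 16 at its start. Mapk3, the ERK1 gene, had 10 reads at each of its regions, and Plekhg5, a guanine nucleotide exchange factor gene, had 14 upstream of a start and 13 at a region that also covers the start of Tnfrsf25, a death receptor gene and the nearer one. Adam8, a metalloprotease gene of leukocytes, had 14 and 8, and Snx9, a sorting nexin gene, 12 and 14. Edc4, a decapping factor gene, and Unc5c, a netrin receptor gene, stayed at 6 or 7 reads throughout. Members of 1 gene are not independent of each other.

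Noncoding genes were the nearest gene of many members. The nearest gene was protein-coding for 64.0% (60.5 to 67.3; 513 of 802) of members and a long noncoding RNA for 27.7% (24.6 to 30.9), against 65.6% and 26.2% of control-only and 86.3% and 10.3% of all shared gene-end regions. Shared regions of 8 to 14 knockout reads had 68.2% and 24.6%. Pseudogenes were nearest to 37 members and small nucleolar RNAs to 9. After Gm41564, Gm41272 and Gm46107, the strongest at noncoding genes were Gm41331 with 19 reads and Gm16578 with 23. Members at long noncoding RNA genes had a median of 10 reads and those at protein-coding genes of 11.

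MicroRNA genes were touched by 11 members, at 11 of 1136 such genes (0.968%, 0.484 to 1.73), while 22 had a control-only and 137 a shared end region and 1.93% of all autosomal genes had a member. These small RNAs silence messenger RNAs through their seed, bases 2 to 8 of the mature strand. The 5' strands of 4 are shown, chosen after their values were seen as those with the most reads together with miR-155, which is known from activated blood cells; sequences are from RefSeq, GRCm38.p6, with the seed in capitals.
mmu-miR-6999-5p, chr2:91944908-91944930, minus strand: aAGGAAGGagagucagcaagcac
mmu-miR-330-5p, chr7:19181486-19181507, plus strand: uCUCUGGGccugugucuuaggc
mmu-miR-7055-5p, chr7:45173303-45173323, plus strand: uCAGUGGGuuaucugaguugg
mmu-miR-155-5p, chr16:84714143-84714165, plus strand: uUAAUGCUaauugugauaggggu
The region 87 bp from Mir6999 had 24 reads, that 101 bp from Mir330 had 17 and that over Mir7055 had 16. The region 128 bp from Mir155, at its host gene Mir155hg, had 7 reads, and its interval from 2.81 to 14.4 reached the middle of the members. The 4 seeds are all different. Open DNA at a microRNA gene can also belong to a host or neighbouring gene.

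Members were spread over all 19 autosomes. Their share of the gene-end regions of a chromosome ran from 4.505% (2.94 to 6.58) on chromosome 13 to 9.97% (6.96 to 13.7; 33 of 331) on chromosome 18, whose interval lay above the 6.44% of all autosomes. Chromosome 18 had 30 control-only regions, so it alone had more knockout-only than control-only regions at gene ends. With 19 chromosomes examined, an interval apart from the mean on 1 of them is not a result on its own.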

How the data were processed

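Peaks of 1 Brd9 knockout and 1 control ATAC-seq library, 2 in all, were analysed as deposited. MACS2 2.2.7.1, deepTools 3.5.1, Bowtie2 2.4.4, Trimmomatic 0.39, Picard 2.26.2 and the build mm10 are named per the submitters' processing notes, without roles or settings. Each library has its own peak list. The deposited fold is the ratio of summit pileup to local background, and the deposited −log10 p and −log10 q are the caller's values; these are the authors' own values per peak. The deposited score was not used. The deposited lists start at a −log10 q of 1.32 (knockout) and 1.31 (control).

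Summit reads were recovered as the whole number that best satisfies the fold and −log10 p together. The relative misfit was below 1e-05 for all but 4 knockout and 5 control peaks. Reads were set to missing only above a looser limit of misfit. Tested on 1991 and 2000 simulated peaks with knockout and control backgrounds, the true number came back for 100% of both. The simulated peaks were made with the same formulas, so this checks the inversion alone and not whether the peak caller followed those formulas. Depth in total reads is unknown, and the depth ratio assumes that reads were extended alike. Gene spans and promoter windows came from RefSeq (GRCm38.p6, the coordinates of mm10). Starts were those of the promoter table and the 5' span ends of its genes. Intervals are exact 95% Clopper-Pearson for shares and exact Poisson for reads; they cover counting error only, since PCR copies were not told apart by molecular identifiers, so that reads are not independent molecules. No test was run, because each group had 1 library. Named were the 12 members of highest −log10 q, members at listed genes, genes with 2 members, 5 noncoding members, 3 regions on each side of the distance limit and 6 promoters; further names were chosen after values were seen, and a few genes that fall under the rule are not reported here. Members and lists were chosen with earlier results of these data known. Alternatives changed the distance to a gene end, peak threshold, number and width, the overlap rule and the gene types. Scripts ran in Python 3.11.15 with matplotlib 3.10.9, pandas 2.3.3, SciPy 1.17.1 and NumPy 2.4.6.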

Additional observations from a re-analysis of the deposited data

How the results depend on the processing

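The number of members, 802, was 1261 with gene ends drawn at 2.5 kb and 451 with knockout peaks of at least 500 bp, and it stayed within 1.5 times under the other alternatives. The share of knockout-only regions at gene ends, 21.6%, was 16.2% at 500 bp, 34.0% at 2.5 kb, 23.8% when a −log10 q of at least 3 was required, 48.4% with equal list lengths, the 10910 best peaks of either library, 23.0% when 0.5 of a knockout peak had to be covered to count as shared and 14.46% for protein-coding genes. The knockout-only share of gene-end regions, 6.44%, was 5.31%, 8.46%, 5.465%, 7.78% and 5.12% under the same settings in that order, equal lengths left out, and 3.73% with the width limit. The share of members with a control peak within 1 kb, 8.35%, was 0.737% with equal lengths, 3.03% when peaks within 500 bp were merged, which removes such members by construction, and 24.1% under the cover rule, which adds them. The share at a gene with a shared end region, 22.9%, was 16.6% at 500 bp, 35.2% at 2.5 kb, 9.76% with equal lengths, 19.1% with the width limit and 28.7% for protein-coding genes. Members at starts, 52.1%, were 70.2% with equal lengths and 56.1% for protein-coding genes, and members nearest to a protein-coding gene, 64.0%, were 81.4% with equal lengths. With equal lengths the weakest peaks of both lists are left out, and the cause of these changes was otherwise not tested. No paired analysis was possible because each genotype had 1 library and the labels share no replicate number, and no library could be left out. At 6 to 8 summit reads, as in 216 of the 802 members, counting error is wide: the 95% interval of 6 reads runs from 2.202 to 13.1.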

Other observations

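Gene families defined by their symbols gave few members. Potassium channel genes had 5 of 96 with a knockout-only end region (5.21%, 1.71 to 11.7), among them Kcna3, a channel gene of lymphocytes, with 13 reads near its 3' end. Solute carrier genes had 13 of 355 (3.66%, 1.96 to 6.18), among them Slc16a3, a lactate transporter gene, with 29 reads at a start, and Zfp zinc-finger genes 11 of 406 (2.71%, 1.36 to 4.80). Histone genes had 1 of 80 and ribosomal protein genes 3 of 364, while 69 and 85 of them had a shared end region. Olfactory receptor genes, which serve smell, had 2 of 1420 (0.141%) with a knockout-only, 2 with a control-only and 1 with a shared end region. The intervals of the potassium channel, solute carrier, zinc-finger and histone genes included the 2.75% of all protein-coding genes. The ribosomal protein genes were matched by symbol and include pseudogenes, and their interval (0.170 to 2.39) included the 1.93% of all autosomal genes. That of the olfactory receptor genes reached up to 0.508%. Kcna3 and Slc16a3 were named after their values were seen.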
